A study of Homo sapiens with 2 samples.

Results

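A set of 9 genes of the Notch pathway was examined in open-chromatin data from a T cell leukemia line and a kidney line: the receptor genes NOTCH1, NOTCH2, NOTCH3 and NOTCH4, the genes of the nuclear effectors RBPJ and MAML2, and the target genes HES1, DTX1 and PTCRA. They are 9 of the 19974 autosomal and X-linked genes annotated as protein-coding. For each gene, every peak of either line that overlapped the gene body or the 50 kb on either side, called the window here, was taken. The 9 windows span 1.93 Mb and held 65 of the 59631 J76 peaks and 105 of the 85597 293T peaks. J76 is labelled an acute T-lymphoblastic leukemia line and is known as a Jurkat derivative without T cell receptor alpha and beta chains. The other line, given as T293 in the sample labels and 293T in the protocol, is human embryonic kidney. Each line gave 1 ATAC-seq library, in which a laboratory-purified Tn5 transposase tagged open chromatin in 50000 cells, and 1 list of peaks. Because a line had 1 library, differences could not be checked against replicates and were not tested.

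Notch receptors are surface proteins that are cut when a ligand on a neighbouring cell binds them. The freed intracellular part enters the nucleus and joins the DNA-binding protein RBPJ and a Mastermind-like coactivator such as MAML2 to switch on target genes. In the thymus this signal, mainly through NOTCH1, commits progenitors to the T lineage, and excess NOTCH1 activity is a common driver of T cell acute leukemia.

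Read numbers are not part of the lists, which leaves the sequencing depth unknown, and the lack of a peak does not show closed chromatin. Defining markers fell with the labels, counting a gene as having a start peak where a peak lay within 1 kb of a start of the gene, or of either end where the start was not known. Of 10 T cell markers, 9 had a start peak in J76 alone and CD2 had none in either line. Of 10 kidney and epithelial markers, 8 had one in 293T alone, CAV1 in both lines and KRT8 in neither. Of 6 B cell markers 0 had one in either line, and of 6 myeloid markers 1 did, CSF1R in 293T. Over all protein-coding genes, 61.2% had a start peak in both lines, 3.63% in J76 only and 8.67% in 293T only.

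Start peaks were present in both lines at 6 members (NOTCH1, NOTCH2, RBPJ, MAML2, HES1 and DTX1), in J76 only at PTCRA, in 293T only at NOTCH3 and in neither at NOTCH4. The share with a start peak in both lines, 66.7%, lay near the 61.2% of all genes. Peaks found in 1 line only, that is without an overlap of at least 1 bp with a peak of the other line, numbered 31 in J76 and 71 in 293T. The bar plot of peaks per gene shows where they lay: MAML2 and NOTCH2 alone held 39 of the 71.

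**Figure D1:**
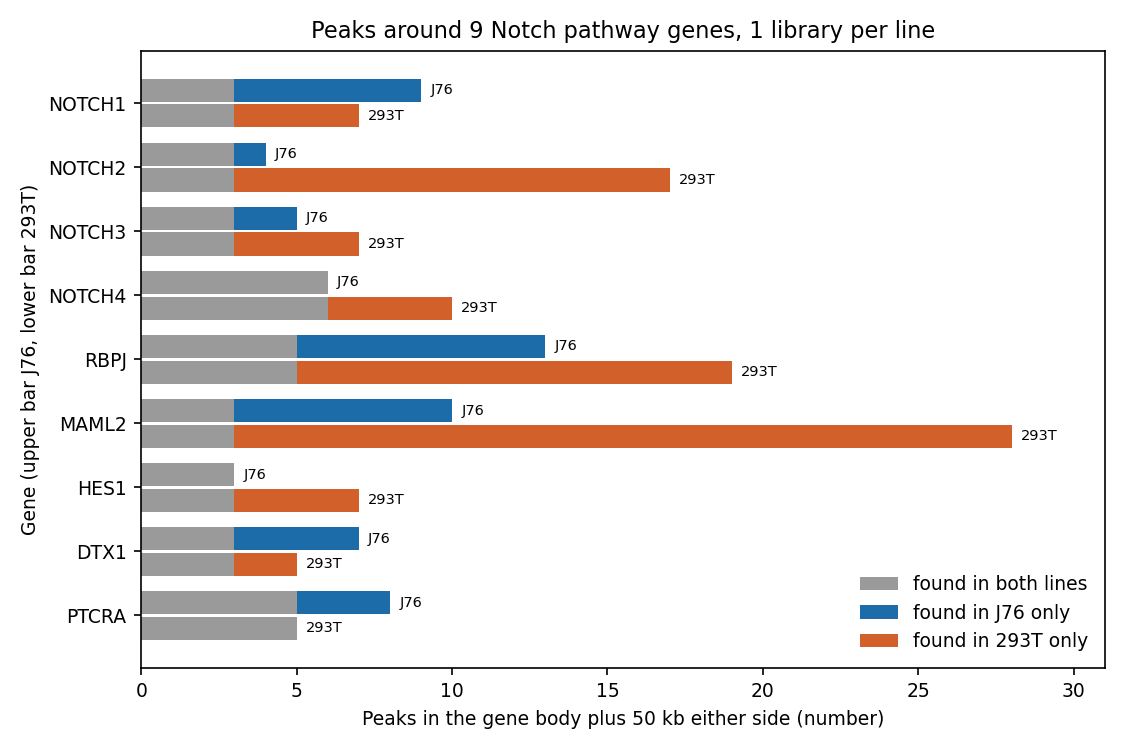
Number of peaks in each gene window (gene body plus 50 kb either side), with the upper bar for J76 and the lower bar for 293T; grey parts are peaks found in both lines and coloured parts peaks found in 1 line only. MAML2 has 28 peaks in 293T against 10 in J76 and NOTCH2 17 against 4, while PTCRA has 3 J76-only and 0 293T-only peaks.

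NOTCH1, the receptor most used by developing T cells, lies on chromosome 9 from 136494433 to 136546048 on the minus strand. Its window held 9 peaks in J76 and 7 in 293T, of which 3 were found in both lines. A broad peak covered the start in both, 1826 bp wide with a fold enrichment of 6.50 in J76 and 1412 bp wide with 4.97 in 293T. This fold is the authors' value at the peak summit and is used here to describe a peak within its own list, where the median was 4.83 in J76 and 4.38 in 293T. The start of the antisense RNA gene NALT1 also lies within 1 kb of the J76 peak. A weaker shared peak lay 33.4 kb upstream in J76 (3.54) and 33.5 kb in 293T (3.52). The other shared peak, at the far side of the window, was at the starts of the neighbours SEC16A and C9orf163 (6.89 in J76 and 5.91 in 293T).

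The line-only peaks of NOTCH1 were mostly weak, 6 in J76 and 4 in 293T. The J76 peak with the highest fold, 5.59, lay 42.2 kb upstream of the start, from 136587867 to 136588473, and a weaker one (3.31) lay beside it at 42.7 kb. The other 4 J76-only peaks had folds from 2.74 to 3.08, with 2 inside the gene at 10.2 and 16.1 kb from the start. In 293T the highest was an intragenic peak of 3.85 at 18.0 kb. Thus J76 had 2 more line-only peaks than 293T around NOTCH1, and 3529 of the 19974 genes had a difference at least as large.

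NOTCH2, a receptor used in many tissues and in marginal zone B cells, spans chromosome 1 from 119911553 to 120069662 on the minus strand. It had 4 peaks in J76 and 17 in 293T. Its start peak was strong in both lines, with a fold of 9.69 in J76 and 8.67 in 293T, above 91.6% and 90.2% of their lists. The other shared peaks lay inside the gene at 101.5 kb from the start (7.90 in J76 and 5.01 in 293T) and beyond its far end (8.78 and 7.90). Beside these J76 had 1 further peak, 11.8 kb upstream (5.48), whereas 293T had 14, of which 10 were spread along the gene body.

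The strongest of the 293T-only peaks at NOTCH2 was 120.8 kb into the gene, from 119948681 to 119949122 (6.63), followed by a peak of 5.54 at 10.3 kb. The median fold of the 14 was 3.89, and 2 of them had a −log10 q of 10 or more. The neighbourhood did not show the same balance: outside the window, the 5 Mb on either side held 268 J76-only and 197 293T-only peaks. Only 395 of 19974 genes had a difference as far or further to 293T, a count that does not allow for gene length.

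The start of NOTCH2 is copied in the NOTCH2NL genes on the same chromosome, which are partial duplicates of it. The RefSeq promoter of NOTCH2 is shown (GRCh38.p14, chr1:120069613-120069912, minus strand, 250 bases before to 50 after the start). Its longest unbroken run shared with the promoter of NOTCH2NLA was 246 bases, given in capitals, and other bases may be shared too:
NOTCH2: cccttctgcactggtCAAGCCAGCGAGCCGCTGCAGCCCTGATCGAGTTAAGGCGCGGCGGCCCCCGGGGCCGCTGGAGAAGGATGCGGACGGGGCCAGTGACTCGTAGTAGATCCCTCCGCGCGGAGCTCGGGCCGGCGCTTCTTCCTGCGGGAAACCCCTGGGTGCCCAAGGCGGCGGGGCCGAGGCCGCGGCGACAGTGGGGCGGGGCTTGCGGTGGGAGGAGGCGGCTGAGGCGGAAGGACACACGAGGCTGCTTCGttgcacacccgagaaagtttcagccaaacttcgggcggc
Runs of 229, 189 and 148 bases were shared with promoters of NOTCH2NLB, NOTCH2NLC and NOTCH2NLR. All 4 copies had a start peak in both lines, with folds from 9.57 to 10.5 in J76 and 7.72 to 9.80 in 293T. The sources used here do not say how reads matching several copies were placed, so the start peak of NOTCH2 is not assigned to this copy alone. Only promoters were compared. Whether the 293T-only peaks inside NOTCH2 lie in copied sequence was not tested.

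NOTCH3, a receptor best known from vascular smooth muscle and also active in T cell leukemia, lies on chromosome 19 from 15159038 to 15200995 on the minus strand. It was the receptor gene whose start differed between the lists. In 293T a peak of 266 bp, from 15200871 to 15201136, covered the start with a fold of 4.79 and a −log10 q of 10.7. No J76 peak lay within 1 kb. Instead J76 had a wider peak of 899 bp inside the gene, 3.3 kb from the start, from 15197284 to 15198182, with a fold of 7.11 and a −log10 q of 51.2, and 293T had none overlapping it. A 293T-only peak of 4.93 lay 5.3 kb from the start. The lines therefore had different peaks within the first 6 kb of NOTCH3, the J76 one being the stronger in its own list (above 75.7% of folds, against 57.1% for the 293T start peak). The other line-only peaks were weak: 1 in J76 (3.17) and 2 in 293T (3.34 and 3.66).

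The NOTCH3 promoter (GRCh38.p14, chr19:15200946-15201245, minus strand) is shown because the 293T peak ends within it; its 191 bases inside that peak are in capitals:
NOTCH3: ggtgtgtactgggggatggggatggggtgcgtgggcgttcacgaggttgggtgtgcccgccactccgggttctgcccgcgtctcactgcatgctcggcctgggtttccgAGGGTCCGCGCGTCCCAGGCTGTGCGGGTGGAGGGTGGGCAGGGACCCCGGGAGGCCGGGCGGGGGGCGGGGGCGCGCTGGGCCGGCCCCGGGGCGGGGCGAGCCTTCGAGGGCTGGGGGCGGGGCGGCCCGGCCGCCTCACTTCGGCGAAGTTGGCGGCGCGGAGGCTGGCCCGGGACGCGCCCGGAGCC
It is 78.3% G and C with 37 CpG dinucleotides, against medians of 62.3% and 21 over 22156 promoters of protein-coding genes, so the start without a J76 peak lay in a CpG-rich promoter.

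NOTCH4, expressed mainly in endothelium, lies in the gene-dense major histocompatibility region of chromosome 6 from 32194843 to 32224067 on the minus strand. It had no start peak in either line. All 6 J76 peaks of its window were also found in 293T, and 5 of them were at starts of neighbours: PPT2 and PRRT1, AGPAT1 (2 peaks, the stronger also at RNF5), PBX2 and GPSM3. The GPSM3 peak overlaps the far end of NOTCH4 and had the highest fold of the window in each line, 7.71 in J76 and 9.52 in 293T. Of the 4 293T-only peaks, the highest lay outside the gene from 32185727 to 32185950 (fold 5.17), and 2 were inside NOTCH4, with folds of 3.76 at 20.8 kb and 4.38 at 20.5 kb from its start. The promoter of NOTCH4 had 5 CpG dinucleotides, the fewest of the 4 receptors, where NOTCH1 had 42, NOTCH3 37 and NOTCH2 33.

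**Figure D2:**
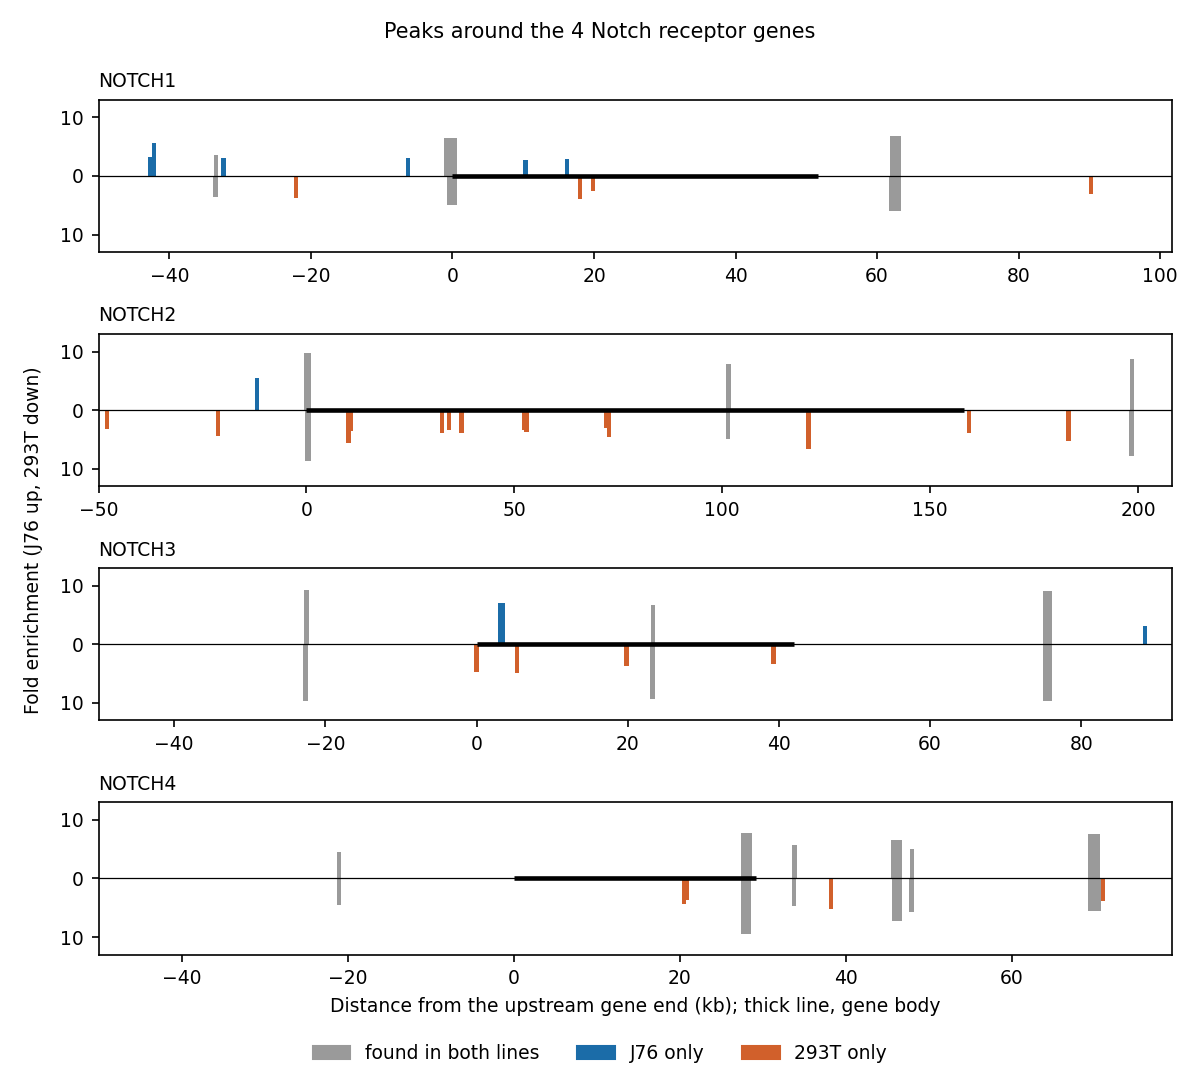
Peaks around the 4 receptor genes by distance from the gene start in kb (thick line, gene body), with the authors' fold enrichment upward for J76 and downward for 293T; grey peaks were found in both lines, blue in J76 only and orange in 293T only. NOTCH2 carries 14 293T-only peaks against 1 J76-only peak, and the starts of NOTCH1 and NOTCH2 are grey.

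RBPJ encodes the DNA-binding protein through which all 4 receptors act. The gene spans chromosome 4 from 26105449 to 26435131 on the plus strand, and the promoter table gives it 5 starts. Of these, 3 neighbouring starts lay under a broad peak in each line, of 2506 bp in J76 (fold 5.55) and 2689 bp in 293T (4.45). These were the widest peaks of all 9 windows. The most upstream start had no peak within 1 kb in either line. The most downstream had a weak 293T peak (3.46, −log10 q 4.68) and none in J76.

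Line-only peaks of RBPJ numbered 8 in J76 and 14 in 293T. The J76 peaks ranged in fold from 3.14 to 6.42, the highest 31.3 kb upstream of the main starts from 26288193 to 26288792. In 293T they ranged from 2.81 to 7.65, the highest a 1200 bp peak from 26173250 to 26174449 that also lies at the start of the non-coding locus LOC105374541. Another 293T peak of similar height (7.36, 1390 bp) lay past the downstream end of the gene. Inside the gene body lay 7 of the J76-only and 11 of the 293T-only peaks, so both lines had peaks of their own along the gene.

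MAML2, a Mastermind-like coactivator, is the longest member, on chromosome 11 from 95976598 to 96343195 on the minus strand. Its start carried the strongest start peak of the members in J76, with a fold of 11.7 (above 97.9% of the list) and 9.30 in 293T (above 92.9%). The 2 other shared peaks were 99.8 kb into the gene, at 3.82 in J76 and 9.88 in 293T, and at the shared start of the neighbours CCDC82 and JRKL (11.7 and 10.05). The intragenic shared peak was thus low in the J76 list and high in the 293T list.

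All line-only peaks of MAML2 were inside the gene, 7 in J76 and 25 in 293T. The 293T peak with the highest fold, 7.03, was 1554 bp wide, 36.0 kb from the start, from 96306575 to 96308128, with a −log10 q of 57.2. The median fold of the 25 was 3.58, and 3 had a −log10 q of 10 or more. In J76 the highest, 5.91 (−log10 q 37.9), stood 330.8 kb into the gene, near its far end, next to another of 4.68. Of all genes, 185 of 19974 had a difference as far or further to 293T, a count that does not allow for gene length. Here the neighbourhood moved with the gene: outside the window, the 5 Mb on either side held 57 J76-only and 217 293T-only peaks, a ratio of 3.81, against 3.57 within the window and 1.94 over the autosomes and chromosome X. The part of this regional excess in the MAML2 result was not tested.

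**Figure D3:**
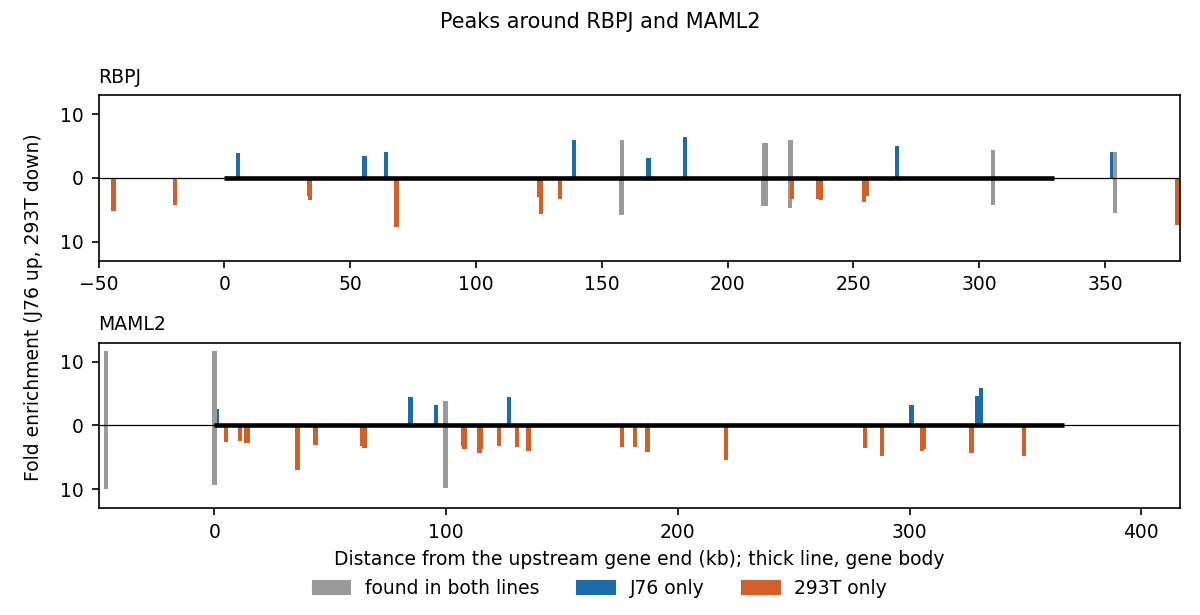
Peaks around RBPJ and MAML2 by distance in kb from the upstream end of the gene (thick line, gene body), with fold enrichment upward for J76 and downward for 293T; grey peaks were found in both lines, blue in J76 only and orange in 293T only. The 25 293T-only peaks of MAML2 are spread over the gene body, and the J76-only peaks with the highest folds sit near its far end.

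HES1, a transcriptional repressor and the classical direct target of RBPJ, lies on chromosome 3 from 194136148 to 194138732 on the plus strand. All 3 J76 peaks of its window were also found in 293T: over the start, just upstream (summit at 1.03 kb in J76 and 1.25 kb in 293T) and downstream of the gene. The start peak had a fold of 3.70 in J76 and 2.59 in 293T, the upstream peak 4.38 and 3.15, and the downstream peak 4.18 and 2.41. These folds were low for their lists while the significance was not: the 293T start peak lay above only 2.89% of folds but above 72.6% of −log10 q values (19.8), and the J76 one above 24.4% and 75.0%. The 4 293T-only peaks were at 23.6 kb upstream (3.96), inside the gene (1.56) and 26.4 and 40.5 kb downstream (4.50 and 3.96), and J76 had none of its own.

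The promoter of HES1 (GRCh38.p14, chr3:194135898-194136197, plus strand) lies whole within the start peak of both lines. It is shown with the core RBPJ motif in capitals, TGGGAA on either strand, which also contains the GGAA core of ETS factors:
HES1: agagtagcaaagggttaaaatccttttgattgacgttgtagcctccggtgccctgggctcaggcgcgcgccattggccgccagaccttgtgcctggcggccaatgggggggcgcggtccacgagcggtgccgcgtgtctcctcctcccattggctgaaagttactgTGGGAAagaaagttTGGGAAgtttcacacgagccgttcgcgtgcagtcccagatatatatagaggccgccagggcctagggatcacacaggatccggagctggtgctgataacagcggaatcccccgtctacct
The motif occurred 2 times on the plus strand, its first base 84 and 70 bases before the start. Among the 22156 promoters, 22.7% held the motif at least once and 3.48% held it 2 or more times. Of the 12 promoters of the 8 members with a promoter sequence, 2 held it (16.7%), the other being an RBPJ promoter under the broad shared peak (chr4:26319496-26319795, plus strand), where the 2 matches are on opposite strands, 115 and 72 bases before the start:
RBPJ: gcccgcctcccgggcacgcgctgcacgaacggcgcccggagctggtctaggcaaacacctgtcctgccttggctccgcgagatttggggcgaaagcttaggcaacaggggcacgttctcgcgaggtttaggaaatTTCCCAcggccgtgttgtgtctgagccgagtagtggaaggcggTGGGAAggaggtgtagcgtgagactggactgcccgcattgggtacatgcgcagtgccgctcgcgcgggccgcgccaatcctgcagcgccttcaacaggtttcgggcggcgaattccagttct
A match describes these letters only, and with 12 promoters the 16.7% is not set apart from the 22.7%.

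DTX1 encodes Deltex, a ubiquitin ligase induced by Notch in lymphocytes, and lies on chromosome 12 from 113056730 to 113098025. It was read at both of its ends. At the end with the lower coordinate the fold was 5.78 in J76 (857 bp, −log10 q 16.1) and 3.55 in 293T (522 bp, −log10 q 4.20), so the J76 peak stood above 62.1% of its list in −log10 q and the 293T peak above 19.3%. At the other end, which is also an end of RASAL1, both lines had a peak (5.30 and 5.92). J76 had 4 line-only peaks, the highest 7.8 kb below the lower end, from 113048783 to 113049170 (5.56), and 3 inside the gene from 2.44 to 3.88. Another shared peak lay 79.1 kb from the lower end (9.37 in J76 and 7.17 in 293T). The 2 293T-only peaks both had a fold of 2.92. The difference of 2 peaks was that of NOTCH1.

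PTCRA encodes the pre-T cell receptor alpha chain, which pairs with the beta chain in thymocytes, and its enhancer is a known Notch target. It lies on chromosome 6 from 42916053 to 42925838 on the plus strand. At its start lay 2 small peaks of J76 and none of 293T: from 42915528 to 42915746 (fold 3.55, −log10 q 5.21) and from 42915824 to 42916031 (2.93, −log10 q 3.00). Both were weak for the J76 list, above 21.8% and 5.54% of its folds. Another J76-only peak lay 17.0 kb upstream (4.20). No peak of either line was inside the gene. The 5 shared peaks included those at the starts of the neighbours RPL7L1, PEX39 and CNPY3, with folds from 8.60 to 9.67 in J76 and 7.97 to 10.2 in 293T, so 293T had high peaks on both sides of PTCRA and none at its start.

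The PTCRA promoter (GRCh38.p14, chr6:42915803-42916102, plus strand) is shown with the 208 bases inside the J76 peak nearer the start in capitals, since this is the start found in J76 only:
PTCRA: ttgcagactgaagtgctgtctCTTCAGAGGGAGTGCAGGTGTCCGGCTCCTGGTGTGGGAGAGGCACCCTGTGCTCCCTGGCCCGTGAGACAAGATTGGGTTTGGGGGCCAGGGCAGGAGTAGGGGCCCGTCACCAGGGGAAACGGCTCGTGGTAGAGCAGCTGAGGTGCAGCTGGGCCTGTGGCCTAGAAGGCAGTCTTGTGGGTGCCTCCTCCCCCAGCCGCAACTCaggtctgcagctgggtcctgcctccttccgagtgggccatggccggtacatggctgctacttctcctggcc
It is 64.3% G and C with 8 CpG dinucleotides and holds no TGGGAA on either strand. With peaks of −log10 q of at least 10, PTCRA had no start peak in J76.

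**Figure D4:**
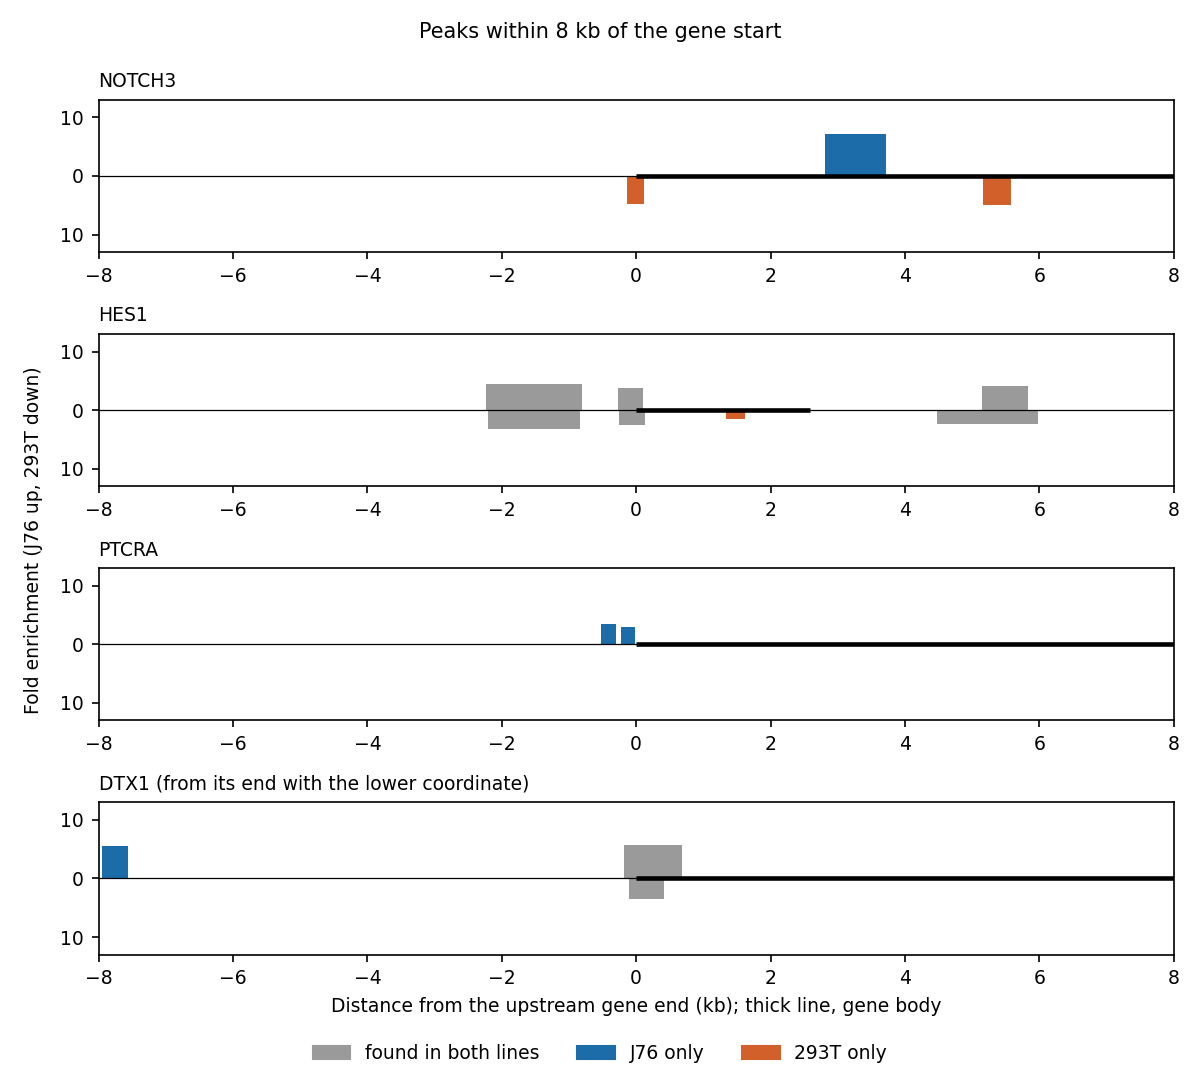
Peaks within 8 kb of the start of NOTCH3, HES1 and PTCRA, and of the end of DTX1 with the lower coordinate, by distance in kb, with fold enrichment upward for J76 and downward for 293T; grey peaks were found in both lines, blue in J76 only and orange in 293T only. The start of NOTCH3 carries a 293T peak and that of PTCRA 2 J76 peaks, while HES1 and DTX1 have peaks of both lines.

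Across the 9 windows, shared and line-only peaks differed in place and strength. Of the 34 shared peaks in each list, 17 were within 1 kb of the start of a member or a neighbour, against 2 of 31 J76-only and 4 of 71 293T-only peaks. The median fold of shared peaks was 6.23 in J76 and 5.88 in 293T, and that of line-only peaks 3.88 and 3.72. A −log10 q of at least 10 was reached by 28 of the 34 shared peaks in each line, by 8 of the J76-only and by 13 of the 293T-only peaks. The same measures are not given for the full lists, so these differences are not assigned to the members in particular. Shared peaks made up 52.3% of the J76 peaks in the windows (95% Wilson interval 40.4 to 64.0, counting error only) and 32.4% of the 293T peaks (24.2 to 41.8). Over the autosomes and chromosome X the shares were 52.3% and 36.0%, so the members lay near the background in both lists.

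The balance between the lines was read by a rule of size: a window leaned to a line if that line had at least 2 times as many line-only peaks as the other and at least 3 more. By this rule 4 members leaned to 293T (NOTCH2, NOTCH4, MAML2 and HES1), 1 to J76 (PTCRA) and 4 to neither. Over all protein-coding genes 26.9% leaned to 293T and 9.58% to J76, and 293T had the longer list. When the 293T list was trimmed to the length of the J76 list, 3 members leaned to each line. NOTCH1 and DTX1 now stood beside PTCRA for J76, and HES1 was lost for 293T. Over all genes 15.6% then leaned to J76 and 12.6% to 293T. At a −log10 q of at least 10 no member leaned to either line, where 4.53% of all genes leaned to J76 and 11.1% to 293T. MAML2 then had 2 J76-only and 4 293T-only peaks, of which 1 293T peak was the shared one at 99.8 kb. Its J76 partner had a −log10 q of 5.10. NOTCH2 had 2 and 2, of which 1 J76 peak was the shared one at 101.5 kb, whose 293T partner had a −log10 q of 9.20.

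**Figure D5:**
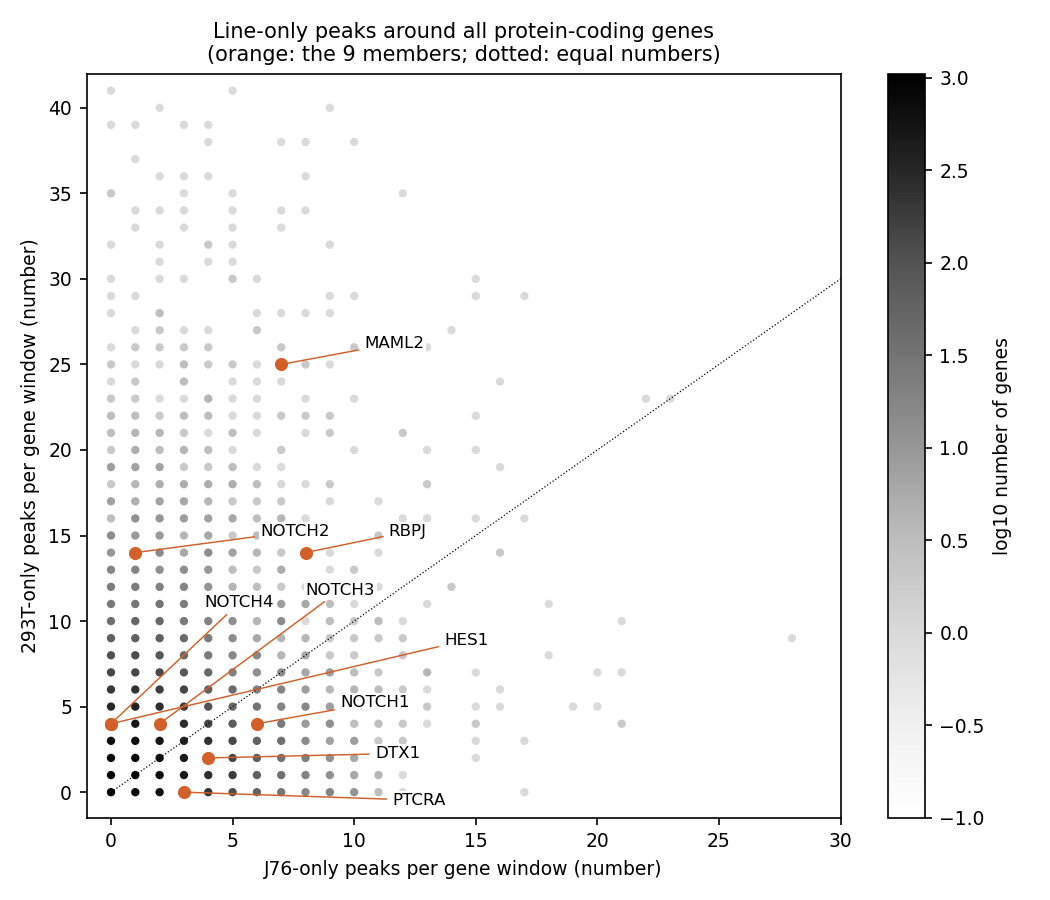
Line-only peaks in the window of each protein-coding gene, J76-only on the horizontal and 293T-only on the vertical axis, shaded by the number of genes at each point (log10), with the 9 members in orange and equal numbers dotted; 21 genes lie beyond the axes. MAML2 (7 and 25) and NOTCH2 (1 and 14) lie far above the dotted line, NOTCH4 and HES1 share the point at 0 and 4, and NOTCH1, DTX1 and PTCRA lie below the line.

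The other genes of the pathway were read in 7 lists of 48 genes in all. Start peaks were present in both lines at 42 of the 48, in J76 only at 1, in 293T only at 1 and in neither at 4 (LFNG, DTX3, HES5 and IL2RA). Over all genes, 61.2% had a start peak in both lines. Windows leaned to J76 at 7 (14.6%) and to 293T at 9 (18.8%), against 9.58% and 26.9% of all genes. At equal list length, where only the 293T list was shortened, these became 17 and 5. The shares of all genes were then 15.6% and 12.6%. In both, a shared J76 peak counted as J76-only once its 293T partner was trimmed. By this J76-only peaks rose from 5 to 7 at MFNG, from 1 to 3 at POFUT1 and from 3 to 4 at HDAC1, DTX2 and HES4. With their J76-only counts of the full lists these genes would not lean.

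All 5 ligand genes had a start peak in both lines, and 1 window leaned: DLL4, a ligand presented by thymic epithelium, had 4 J76-only and 0 293T-only peaks. Of 9 genes that cut and process the receptor, 8 had a start peak in both. The exception was PSEN2, a catalytic subunit of gamma-secretase, with a peak in 293T only (fold 8.99) and 0 J76-only against 4 293T-only peaks in its window. ADAM10, the protease of the first ligand-induced cut, leaned to J76 (5 and 0). Of the 5 glycosylation genes, 4 had a start peak in both and 0 leaned.

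All 5 coactivator genes had a start peak in both lines, and 3 leaned to 293T: MAML3 (8 J76-only and 25 293T-only peaks), MAML1 (0 and 5) and the acetyltransferase gene KAT2B (2 and 8). With MAML2, the 3 Mastermind-like genes leaned to 293T, as they did at equal list length, where MAML1 had 0 and 4 and MAML3 8 and 16. Over all genes 26.9% leaned to 293T, and 12.6% at equal list length. The windows of MAML2 and MAML3 span 467 and 537 kb and that of MAML1 144 kb, and the counts do not allow for this length. At a −log10 q of at least 10, MAML1 and MAML3 still leaned and MAML2 did not. MAML1 then had 0 and 6, more 293T-only peaks than the 5 of the full lists. The 6 thus include shared peaks whose J76 partner fell below the limit. KAT2B had 3 and 3 at equal list length. EP300, another acetyltransferase, leaned to J76 (3 and 0). Among 6 corepressor genes, NCOR1 (0 and 5) and SPEN (0 and 6) leaned to 293T and CTBP1 (4 and 0) to J76, with start peaks of both lines at all 6. NCOR1 did not lean at equal list length (0 and 2). Among 8 inhibitors and turnover genes, FBXW7, the ligase that degrades active Notch, leaned to 293T (3 and 7) and NUMB, an inhibitor of the receptor, to J76 (4 and 1), of which FBXW7 no longer leaned at equal list length (3 and 4).

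Among 10 further target genes, IL7R, the receptor chain of an early T cell growth factor, was the gene with a start peak in J76 only (fold 3.97), and its window held 10 J76-only and 0 293T-only peaks. HES5, a relative of HES1, had no start peak in either line but leaned to J76 (7 and 1). The windows of its neighbours PANK4 (9 and 1) and TNFRSF14 (8 and 0) leaned to J76 too, so the lean is not assigned to HES5 alone. HEYL (0 and 4) and IGF1R (10 and 29), a growth factor receptor gene, leaned to 293T, each with a start peak in both lines, and HEYL did not lean at equal list length (0 and 2). At a −log10 q of at least 10, IL7R still leaned to J76 (3 and 0). DLL4, ADAM10, EP300, CTBP1, NUMB and HES5 no longer did. SPEN and IGF1R still leaned to 293T, as MAML1 and MAML3 did. PSEN2, KAT2B, NCOR1, FBXW7 and HEYL no longer leaned there. The genes most like NOTCH1 in the density of peaks, by the distance between log2 values of peaks per 100 kb plus 1 over the 2 libraries, were HDAC1 (distance 0.117), MFNG (0.123) and DLL1 (0.232). NOTCH1 itself had 5.94 peaks per 100 kb in J76 and 4.62 in 293T, and HDAC1 5.65 and 4.24.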

How the data were processed

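Peak lists of 2 ATAC-seq libraries, 1 per cell line, were used. The submitters' processing notes name Bowtie2 and MACS2. Not given in the sources used here were versions, settings, duplicate removal, any shift of cut positions and the genome build. Unplaced contigs carry GRCh38 names, and positions are given as GRCh38, counted from 1. Per peak the authors deposited a linear fold (a ratio over background at the summit), −log10 p, −log10 q and a score, which is the integer part of 10 times −log10 q except in 3 peaks of 293T. Deposited −log10 q values started at 1.32 (J76) and 1.37 (293T). Gene bodies and starts came from RefSeq tables of GRCh38.p14. Of the 19974 protein-coding genes, 15812 had a start and the other 4162, DTX1 included, were read within 1 kb of both ends. Windows, sharing and leans were computed in Python 3.11.15 with pandas 2.3.3 and scipy 1.17.1, after the counting had been tested on simulated peaks. Promoter sequences came from the same RefSeq source; exon and intron annotation and sequence outside promoters were not used. All 9 members are named, with the line-only peak of highest fold per window and line, up to 4 genes per pathway list that leaned or had a start peak in 1 line, and the 3 genes nearest to NOTCH1; other genes were named after their values were seen. Members and lists were chosen with earlier results of these data known. Alternatives were a stricter −log10 q, equal list lengths, other overlap rules, flanks and start windows.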

Additional observations from a re-analysis of the deposited data

How the results depend on the processing

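The depth of the libraries is unknown, so weak peaks limit every count. Keeping peaks with −log10 q of 10 or more, the windows held 36 J76 and 41 293T peaks, with 11 J76-only and 16 293T-only. Under a limit or a trimmed list, a shared peak counts as line-only once its partner is cut. Of the line-only peaks of the full lists, 8 in J76 and 13 in 293T reached a −log10 q of 10. At that limit 0 members leaned to J76 and 0 to 293T, 0 members had a start peak in J76 only, 2 other pathway genes had one in 293T only, and 2 and 4 other pathway windows leaned to J76 and 293T. Over all genes 4.53% of windows leaned to J76 and 11.1% to 293T at that limit. The PTCRA difference turned to -1 there, with 0 J76-only peaks and 1 293T-only peak. That 293T peak (−log10 q 10.8) is shared in the full lists, and its J76 partner (5.64) fell below the limit. At a −log10 q of at least 5 there were 20 J76-only and 47 293T-only peaks. With the 293T list trimmed to equal length, 293T-only peaks fell to 42, 3 members leaned to J76, 17 and 5 other pathway windows leaned to J76 and 293T, and the RBPJ difference turned to 2 more J76-only peaks. Over all genes 15.6% of windows then leaned to J76 and 12.6% to 293T. A flank of 20 kb gave 2 members leaning to J76, DTX1 and PTCRA, and a flank of 100 kb gave 103 J76 peaks. DTX1 also leaned to J76 with the 100 kb flank (6 and 3), with a −log10 q of at least 5 (3 and 0) and at equal length (5 and 0), so it leaned to neither line in 4 of the 8 window alternatives. In the last 2 settings its J76-only peaks include the lower-end peak shared in the full lists, whose 293T partner (−log10 q 4.20) was cut. Without that peak DTX1 would not lean at the limit of 5, and would still lean at equal length. PTCRA lost its lean with the 100 kb flank and with −log10 q limits of 5 and 10, and NOTCH3 leaned to 293T with either flank. A reciprocal overlap of 50%, summits within 250 bp, assignment by summit and narrower or wider start windows moved none of the summed counts by over 1.5 times. Of the 8 window alternatives, MAML2, NOTCH2 and NOTCH4 leaned to 293T in 7 and HES1 in 5. No paired analysis was possible because each line has 1 library.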
